A study of Mus musculus with 14 samples.

Results

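The genes described are 35 targets and regulators of the transcription factor p53, chosen by symbol from knowledge of the pathway and followed in 14 tumours grown from B16-F10, an established mouse melanoma cell line. A gene was represented by a probe set that carries its symbol alone, and by the one with the highest mean where there were several. On the first of 2 Affymetrix whole-transcript array designs 31 of the 35 had such a probe set, among 22180 genes in all. Of these, 29 entered the tests among 16635 genes, and Fas and Eda2r lay in the lowest 25% of genes by mean level, which was left out. The second design held 31 of the 35 among 19938 genes, and 30 members were on both. The expression of Trp53, which encodes p53 itself, of Bax and of Gdf15 is not analysed here, as no probe set used here carries their symbol alone. Ddb2 on the first design and Cdkn1a on the second share their probe set with another symbol and were not analysed there.

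Tumours came from 3 sources: B16-F10 itself, called control and labelled sensitive, and the sublines Res 499 and Res 177, both labelled resistant to radiation given with antibody against the checkpoint receptor CTLA4. The first design held 4 control, 7 Res 499 and 1 Res 177 tumours, and the second held 1 control and 1 Res 177 tumour. All tumours grew under the skin of C57BL/6 mice from cells mixed with Matrigel, placed on the right flank on day 0 and on the left on day 2. The protocol in the labels includes 20 Gy to the right flank on day 8 and the CTLA4 antibody on days 5, 8 and 11, without saying whether the tumours measured here had received it. Each resistant line is a single subline, so a difference between a subline and the control cannot be told apart from a difference particular to that line. Whether the tumours of a group grew in separate mice is not stated in the labels, and p-values therefore reflect the spread among these particular tumours alone.

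p53 is a transcription factor that is held low by the ubiquitin ligase Mdm2 and its partner Mdm4, and that accumulates when DNA damage signalling releases it from them. It then switches on genes that halt the cell cycle, repair DNA, or start apoptosis through mitochondria and death receptors, and it switches on Mdm2, which closes a feedback loop. In melanoma the pathway is often held down by loss of the Cdkn2a locus or by high Mdm2 or Mdm4 rather than by mutation of p53.

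p53 binds DNA as a tetramer at a pair of decameric half-sites, and such a site can lie in the stretch upstream of a target's start. To show where the letters of such a site stand in front of these genes, the 250 bases before each RefSeq start in the build GRCm38.p6 were searched for the p53 consensus half-site, a palindromic motif of 10 bases that reads alike on both strands. A window was at hand for 28 of the 35 members, and not for Zmat3, Trp53inp1, Tnfrsf10b, Xpc, Rrm2b, Ddb2 and Pmaip1. A half-site stood before 10 of these 28 genes (35.7%), against 2216 of 27025 genes of the genome (8.2%). Some genes have several starts and so several windows. By window it was 10 of 42 for the members (23.8%), against 2341 of 32851 for all genes (7.13%). The 10 are Trp53, Mdm2, Cdkn1a, Ccng1, Bax, Aen, Ei24, Polk, Sesn1 and Ddit4l. A full site was sought in 2 overlapping ways, the second added after the first had been read. A pair of exact half-sites with up to 13 bases between them stood before Cdkn1a. That was 1 of 42 member windows (2.38%), against 21 of 32851 windows (0.0639%). An adjacent pair of 20 bases with at most 1 mismatch stood before Cdkn1a and Ccng1. That was 2 of 42 member windows (4.76%), against 25 of 32851 windows (0.0761%). Both kinds of pair contain at least 1 stretch that the half-site search also finds. A few stretches are shown: Cdkn1a and Ccng1, which hold a pair, and Mdm2 and Ei24 as examples of a single half-site. They run 5′ to 3′ on the strand of the gene, with the half-sites and adjacent pairs in capitals. Cdkn1a is at chr17:29090859-29090958 (plus strand, 120 to 21 bases before the start) and Ccng1 at chr11:40755437-40755496 (minus strand, 210 to 151 bases before). Mdm2 is at chr10:117710909-117710968 (minus strand, 210 to 151 bases before) and Ei24 at chr9:36797335-36797394 (minus strand, 60 to 1 bases before).
Cdkn1a: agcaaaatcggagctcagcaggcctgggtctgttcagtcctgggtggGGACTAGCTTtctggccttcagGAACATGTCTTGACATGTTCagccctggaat
Ccng1: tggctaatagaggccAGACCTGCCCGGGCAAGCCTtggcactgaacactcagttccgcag
Mdm2: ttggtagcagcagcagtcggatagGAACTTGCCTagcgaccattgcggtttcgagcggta
Ei24: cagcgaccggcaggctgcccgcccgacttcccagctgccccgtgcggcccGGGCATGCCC
In the Cdkn1a stretch the exact half-sites begin the 2 capital runs, and the longer run is the adjacent pair. Where a gene had several windows, its stretch was taken from one that held a half-site. For Cdkn1a the distances count from the outermost start of the gene, chr17:29090979. Any start further inside the gene lies farther from the stretch. A match is a description of the letters, and a gene without one lacks them only in this window, since p53 sites also lie further upstream or in introns.

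The arrays of the first design resembled each other closely, with correlations between 0.9772 and 0.9933 and medians from 5.70 to 5.80 on the log2 scale. Melanocyte markers were high in every tumour: Pmel, a pigment cell structural protein, had a level of 13.18 to 13.35 in the controls, 13.28 to 13.48 in Res 499 and 13.36 in Res 177. Leukocyte markers were uneven. The mean log2 level of Ptprc, Cd53, Laptm5, Coro1a and Csf1r was 6.24 to 6.71 in the controls, 6.04 to 8.21 in Res 499 and 7.46 in Res 177, and Res 499 replicates 1, 2, 3 and 5 stood highest with 7.76 or more. All 15 tested genes of a list of 17 leukocyte markers had a positive change in Res 499, while 48.3% of all genes were negative. Their median was 0.75, against 0.01 over all genes. By limma 0 passed the adjusted threshold (0.144% of all genes called higher), and 8 were higher at unadjusted p under 0.05 (6.68% of all genes). Ptprc, the pan-leukocyte antigen CD45, had a change of 1.16 (adjusted p = 0.369), and Adgre1, a macrophage receptor, 1.43 (adjusted p = 0.370). Of 12 tested stromal and skin markers 9 were positive in Res 499, with a median of 0.09 and 0 past the adjusted or the unadjusted threshold. Of 8 melanocyte markers 5 were positive, with a median of 0.03 and 0 past the adjusted threshold. At unadjusted p 1 was lower (6.29% of all genes), Sox10 (-0.26). In the other direction 2 were higher (6.68% of all genes), Slc45a2 (0.20) and Pmel (0.16).

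In Res 499 tumours most of the p53 genes had lower levels than in control tumours, by modest amounts. Changes are given as log2 Res 499 minus control with their standard error (SE), from limma with p-values adjusted by Benjamini-Hochberg over all 16635 genes. Of the 29 tested members 21 had a negative change (72.4%), against 48.3% of all genes, and the median was -0.18 against 0.01 over all genes. Of the members 1 fell past the adjusted threshold of 0.05, against 0.21% of all genes, and 0 rose, against 0.144%. At an unadjusted p under 0.05, 11 of 29 were lower (6.29% of all genes) and 0 were higher (6.68% of all genes). In 6 members every Res 499 tumour lay below every control tumour (1.15% of all genes), and in 0 did every one lie above (1.23%). Relative to the control mean, the median over the members was -0.26 to -0.09 in the 7 Res 499 tumours, -0.17 to 0.13 in the 4 controls and -0.22 in the Res 177 tumour of this design, so the ranges of Res 499 and control overlapped. In bulk tumours, fewer cells that express a gene and less of its RNA per cell cannot be told apart.

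**Figure D1:**
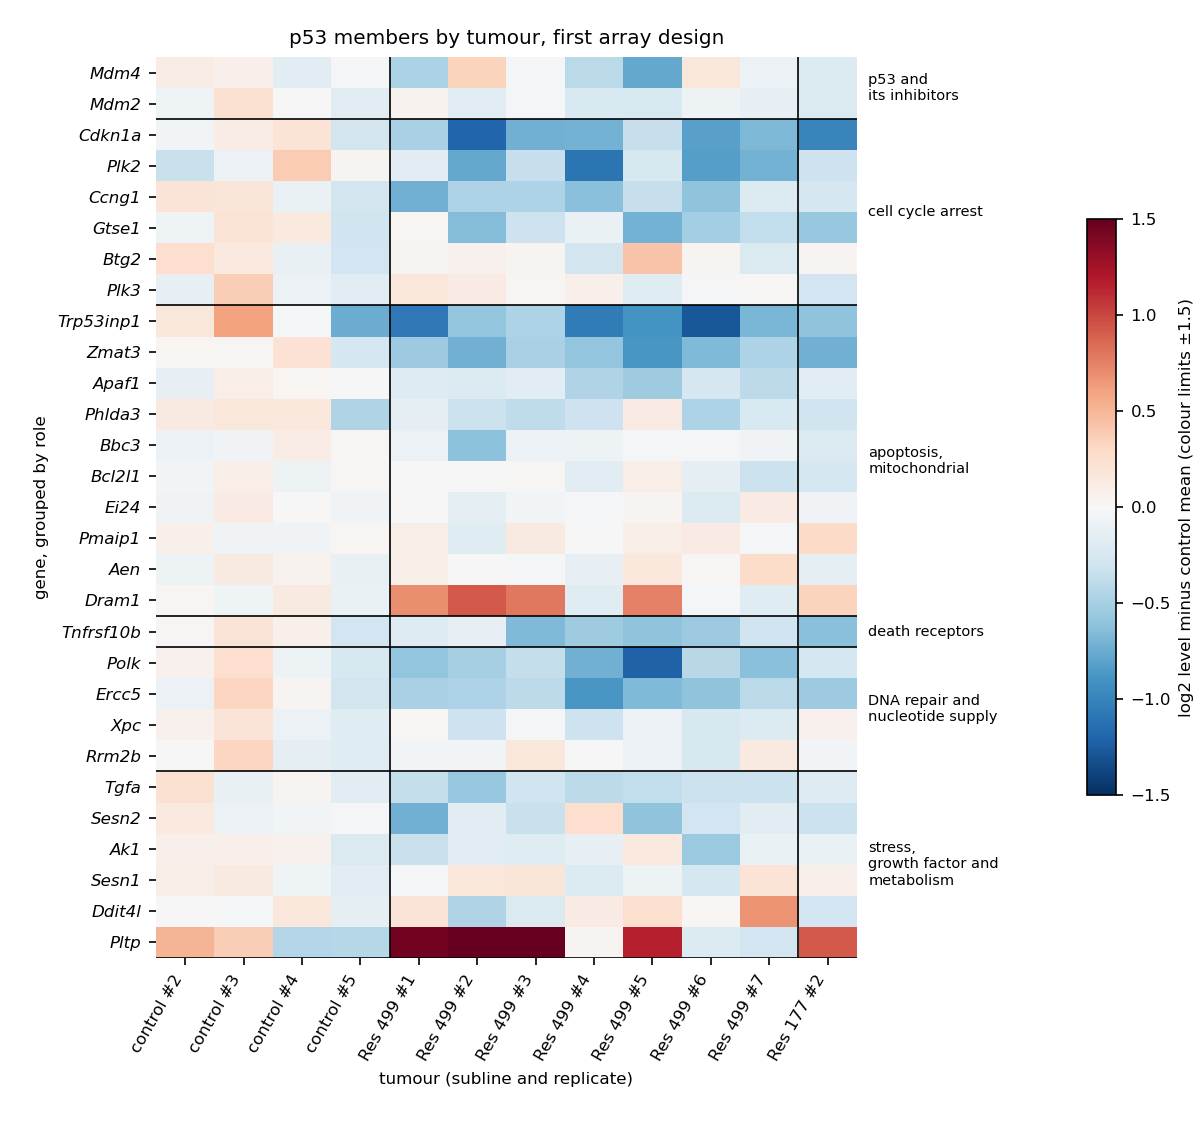
Log2 level minus the control mean of each of the 29 tested members (vertical axis, grouped by role) in each of the 12 tumours of the first design (horizontal axis), coloured from blue (lower) to red (higher) with limits at ±1.5. Cdkn1a, Trp53inp1, Zmat3, Ercc5 and Polk are blue in every Res 499 tumour, and Pltp and Dram1 are red in Res 499 replicates 1, 2, 3 and 5.

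Among the inhibitors of p53, neither Mdm2 nor Mdm4 passed the test. Mdm2, which is at once the main brake on p53 and one of its targets, had levels of 9.30, 9.60, 9.37 and 9.20 in the 4 controls. Its Res 499 levels ran from 9.14 through a median of 9.24 to 9.42, and the Res 177 tumour was at 9.14. Res 499 and control overlapped, and the change was -0.11 (SE 0.08, adjusted p = 0.626). Mdm4, its partner that masks the activation domain of p53, varied more among the Res 499 tumours (8.75 to 9.85) than among the controls (9.35 to 9.63), with a change of -0.18 (SE 0.18, adjusted p = 0.734).

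Of the 6 genes grouped under cell cycle arrest, 4 had lower levels in Res 499 at unadjusted p (6.29% of all genes). In this comparison 0 of the 6 passed the adjusted threshold (0.21% of all genes called lower). Cdkn1a, the inhibitor p21 of cyclin-dependent kinases and the best known arrest target, had levels of 12.11, 12.26, 12.36 and 11.88 in the controls. Res 499 tumours had a lowest level of 10.96, a median of 11.44 and a highest of 11.81, and the Res 177 tumour had 11.16. Every resistant tumour was thus below every control. The change was -0.71 (SE 0.14), and its adjusted p of 0.0573 missed the threshold. Ccng1, which encodes cyclin G1 and helps to restrain p53, was at 12.82, 12.81, 12.52 and 12.35 in the controls and at 11.91, 12.16 and 12.42 (lowest, median, highest) in Res 499. One Res 499 tumour, replicate 7, reached into the control range, and the change was -0.49 (SE 0.11, adjusted p = 0.0861). Plk2, a polo-like kinase induced by stress, was at 8.49, 8.73, 9.20 and 8.87 in the controls and at 7.73, 8.11 and 8.66 in Res 499. The groups overlapped through Res 499 replicates 1 and 5, with a change of -0.59 (SE 0.18, adjusted p = 0.188). Gtse1, a microtubule-associated protein that takes p53 out of the nucleus in G2, was at 9.62, 9.89, 9.83 and 9.39 in the controls and at 8.97, 9.31 and 9.71 in Res 499. Its groups overlapped, and the change was -0.38 (SE 0.15, adjusted p = 0.298). Plk3, another stress-induced kinase of the polo family, and Btg2, an antiproliferative adaptor of mRNA deadenylation, had changes of 0.03 and 0.02. The sign of Plk3 turned in 3 of 22 alternative analyses and that of Btg2 in 6.

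**Figure D2:**
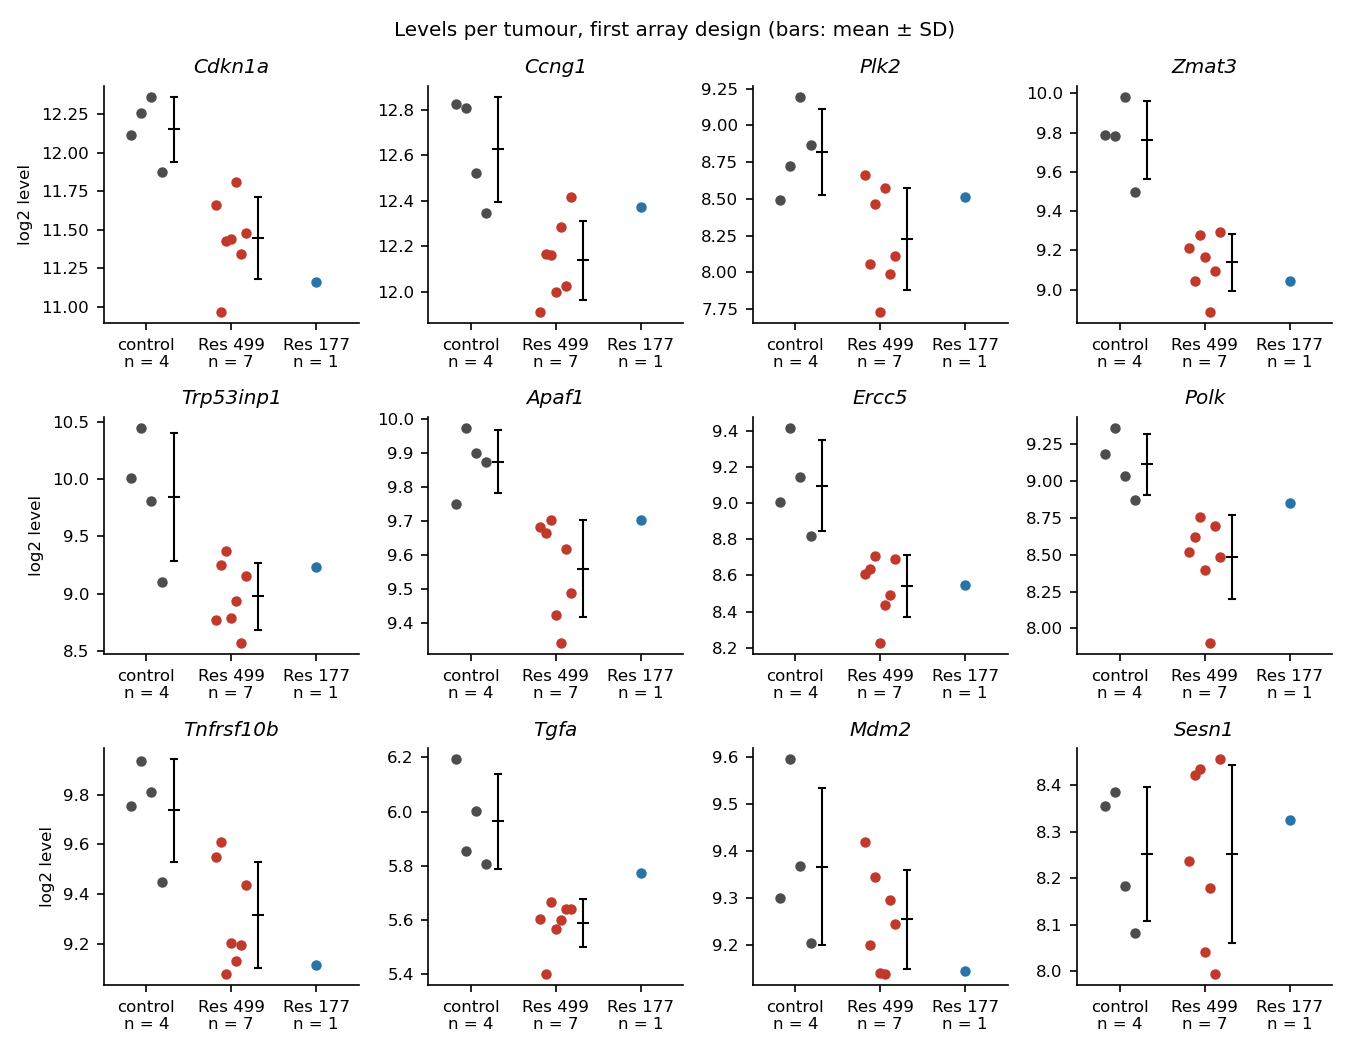
Log2 level (vertical axes, scaled per gene) of 12 members in each tumour of the first design by group (horizontal axes); bars give mean ± SD. For Cdkn1a, Zmat3, Apaf1, Ercc5, Polk and Tgfa all 7 Res 499 tumours lie below the 4 controls, while Mdm2 and Sesn1 overlap.

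Among the 10 tested genes grouped under apoptosis through mitochondria, Zmat3 fell in Res 499. It was the only member to pass the adjusted threshold there (0.21% of all genes called lower). That group is broad, and several of its genes, Zmat3 among them, are not parts of the mitochondrial pathway itself. Zmat3, an RNA-binding zinc finger protein that acts in p53's tumour suppression, had levels of 9.79, 9.78, 9.98 and 9.50 in the controls. Res 499 levels were 8.89 at the lowest, 9.17 at the median and 9.30 at the highest, and Res 177 was at 9.04. All resistant tumours were below all controls, and the fall in Res 499 was -0.62 (SE 0.10, adjusted p = 0.0323), number 20 of the 16635 genes by p. With 1 tumour left out at a time Zmat3 passed in 5 of 12 fits, with a change between -0.71 and -0.55 and an adjusted p from 0.0107 to 0.143. It was above 0.05 without control replicate 2 (0.0910), 3 (0.0755) or 4 (0.143) and without Res 499 replicate 1 (0.0535), 3 (0.0507), 4 (0.0636) or 6 (0.0675). The 5 passing fits include the one without the Res 177 tumour, a group of 1 whose removal hardly alters Res 499 against control. After leukocyte content entered the fit as a covariate, the change was -0.58 (SE 0.12, adjusted p = 0.0869).

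Trp53inp1, a nuclear protein that promotes p53's pro-apoptotic activity and autophagy, had the largest negative change of all members. Its controls were spread widely at 10.01, 10.45, 9.81 and 9.10, against 8.57, 8.94 and 9.38 (lowest, median, highest) in Res 499 and 9.23 in Res 177. The low control, replicate 5, overlapped 3 of the Res 499 tumours, and the change was -0.86 (SE 0.22, adjusted p = 0.114). Apaf1, the scaffold of the apoptosome that activates caspase-9, was at 9.75, 9.97, 9.90 and 9.87 in the controls and at 9.34, 9.62 and 9.70 in Res 499. Its groups did not overlap, although the gap was small, and the change was -0.32 (SE 0.08, adjusted p = 0.131). Bbc3, which encodes the BH3-only killer protein Puma, was at 6.29, 6.32, 6.49 and 6.40 in the controls and at 5.76, 6.30 and 6.36 in Res 499. The groups overlapped, Res 499 replicate 2 alone stood well below the rest, and the change was -0.14 (SE 0.11, adjusted p = 0.639). Phlda3, an inhibitor of Akt, had -0.25 (SE 0.13, adjusted p = 0.469). The anti-apoptotic Bcl2l1 (-0.07), the endoplasmic reticulum protein Ei24 (-0.03), the BH3-only gene Pmaip1 (Noxa, 0.03) and the nuclease Aen (0.06) had changes near 0, and that of Ei24 turned sign in 2 of 22 alternatives. Dram1, a lysosomal protein of p53-driven autophagy, had 0.40 (SE 0.23, adjusted p = 0.495) and is taken up again with the leukocyte values.

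Of the 3 death receptors 1 entered the tests. Tnfrsf10b, the receptor for the ligand TRAIL, was at 9.75, 9.94, 9.81 and 9.45 in the controls and at 9.08, 9.20 and 9.61 in Res 499. The groups overlapped through 2 Res 499 tumours, and the change was -0.42 (SE 0.12, adjusted p = 0.166). Fas, the receptor for Fas ligand, was below the filter, and its levels were 4.82, 4.60, 4.66 and 4.62 in the controls and 4.60, 4.82 and 5.03 in Res 499. In a fit with no filter on dim genes its change was 0.14 (SE 0.09, adjusted p = 0.655). Eda2r, the receptor for ectodysplasin A2, had -0.09 (SE 0.07, adjusted p = 0.702) in that same fit.

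All 4 tested genes of DNA repair and nucleotide supply had negative changes (48.3% of all genes). For Ercc5 and Polk the groups did not overlap (1.15% of all genes in this direction). Ercc5, the XPG endonuclease that cuts 3′ of a lesion in nucleotide excision repair, was at 9.00, 9.42, 9.14 and 8.82 in the controls and at 8.22, 8.61 and 8.71 in Res 499. Res 177 was at 8.55, so every resistant tumour lay below the controls, and the change in Res 499 was -0.55 (SE 0.12, adjusted p = 0.0698). Polk, a translesion DNA polymerase, was at 9.18, 9.36, 9.04 and 8.88 in the controls and at 7.90, 8.52 and 8.76 in Res 499. The lowest value came from Res 499 replicate 5, and the change was -0.63 (SE 0.15, adjusted p = 0.0843). Xpc, which recognises the lesions that Ercc5 helps to remove, had -0.16 (SE 0.09, adjusted p = 0.487). Rrm2b, the p53-inducible subunit of ribonucleotide reductase, had -0.01, with a sign that turned in 3 of 22 alternatives.

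Of the 6 tested genes of stress response, growth factor signalling and metabolism, Tgfa was the one at unadjusted p under 0.05. At that bound 6.29% of all genes were lower. Tgfa, a ligand of the epidermal growth factor receptor, was at 6.20, 5.85, 6.00 and 5.81 in the controls and at 5.40, 5.60 and 5.67 in Res 499. The groups did not overlap and the change was -0.38 (SE 0.08, adjusted p = 0.0754). The sestrins, which restrain mTORC1 under stress, stood apart from each other in their values: Sesn2 had -0.29 (SE 0.15, adjusted p = 0.453), while Sesn1 had 0.00, with a sign that turned in 8 of 22 alternatives. Ak1, a cytosolic adenylate kinase, had -0.19 (SE 0.11, adjusted p = 0.535). Ddit4l, an inhibitor of mTOR signalling, had 0.08, and its sign turned in 1 of 22 alternatives.

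**Figure D3:**
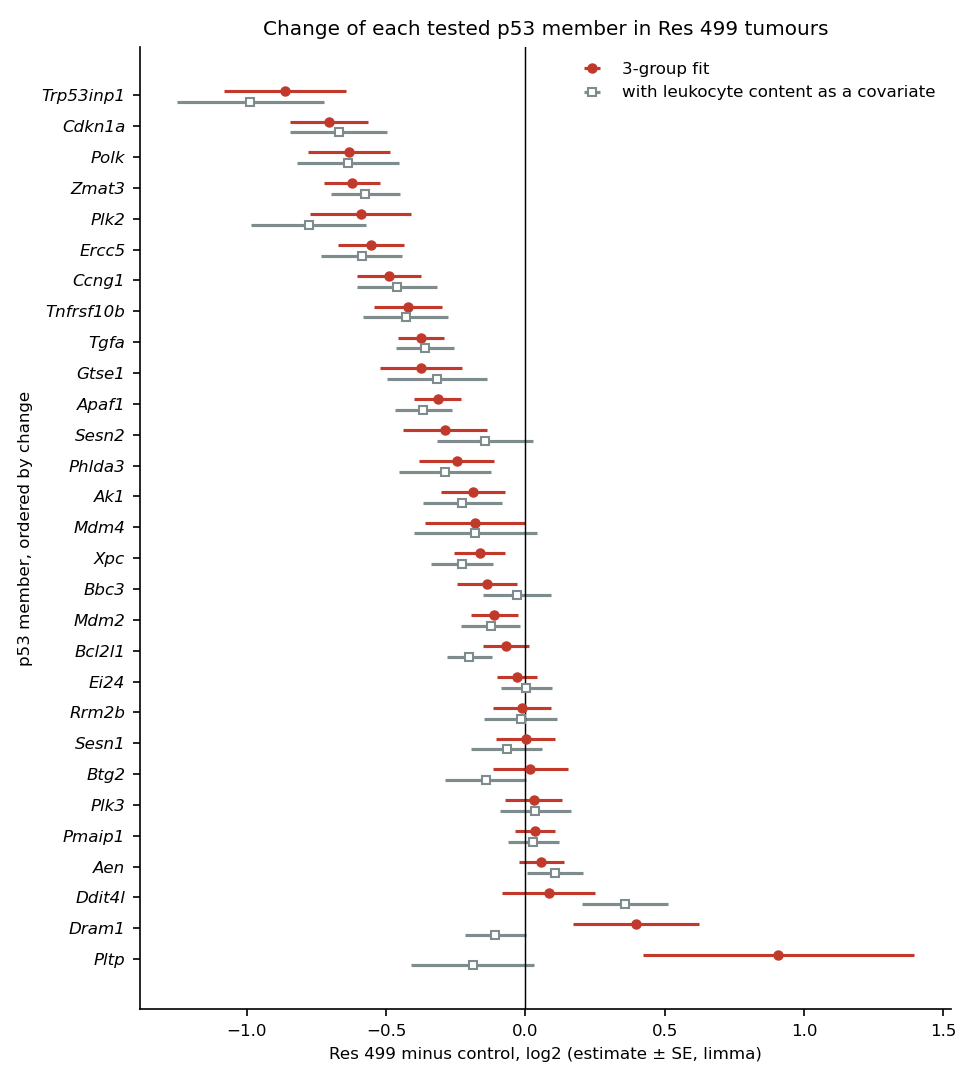
Change in Res 499 against control (horizontal axis, log2, estimate ± SE from limma) of the 29 tested members (vertical axis, ordered by change), from the fit of 3 groups (filled) and from a fit that adds leukocyte content (open). Most estimates lie left of 0 in both, and Pltp goes from 0.91 to -0.19 and Dram1 from 0.40 to -0.11.

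Pltp, a phospholipid transfer protein that macrophages also make, and Dram1 had the largest positive changes, and their levels moved with leukocyte content. Pltp was at 7.67, 7.53, 6.72 and 6.73 in the controls, at 6.88, 8.33 and 9.27 (lowest, median, highest) in Res 499 and at 8.08 in Res 177. Its change in Res 499 was 0.91 (SE 0.49, adjusted p = 0.464). Res 499 replicates 1, 2, 3 and 5, the tumours with leukocyte content of 7.76 or more, held the 4 Pltp levels above every control, and replicates 4, 6 and 7, with 6.69, 6.63 and 6.04, did not. Dram1 had the same split, with 6.35, 6.26, 6.46 and 6.23 in the controls, 7.03, 7.24, 7.12 and 7.08 in Res 499 replicates 1, 2, 3 and 5, and 6.14, 6.31 and 6.14 in replicates 4, 6 and 7. Once leukocyte content was added to the fit, the estimates were -0.19 (SE 0.22) for Pltp and -0.11 (SE 0.11) for Dram1, each of the opposite sign. Over the 29 members, 24 were negative with the covariate, against 46.4% of all genes, and the median was -0.20 against 0.01. At unadjusted p 11 were lower (5.64% of all genes) and 1 higher, Ddit4l (0.36, SE 0.15). The share of all genes higher in this fit was not counted, and without the covariate it was 6.68%. The 1 higher member is therefore not read as a result. The 11 were not all the same genes as without the covariate: Bcl2l1 (-0.20, SE 0.08) entered and Gtse1 (-0.32, SE 0.18) left. By limma 0 members passed the adjusted threshold, and 0.0541% of all genes were called lower. Of the members with the lowest values without the covariate, Cdkn1a had -0.67, Ercc5 -0.59, Polk -0.64, Trp53inp1 -0.99 and Plk2 -0.78 with it.

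**Figure D4:**
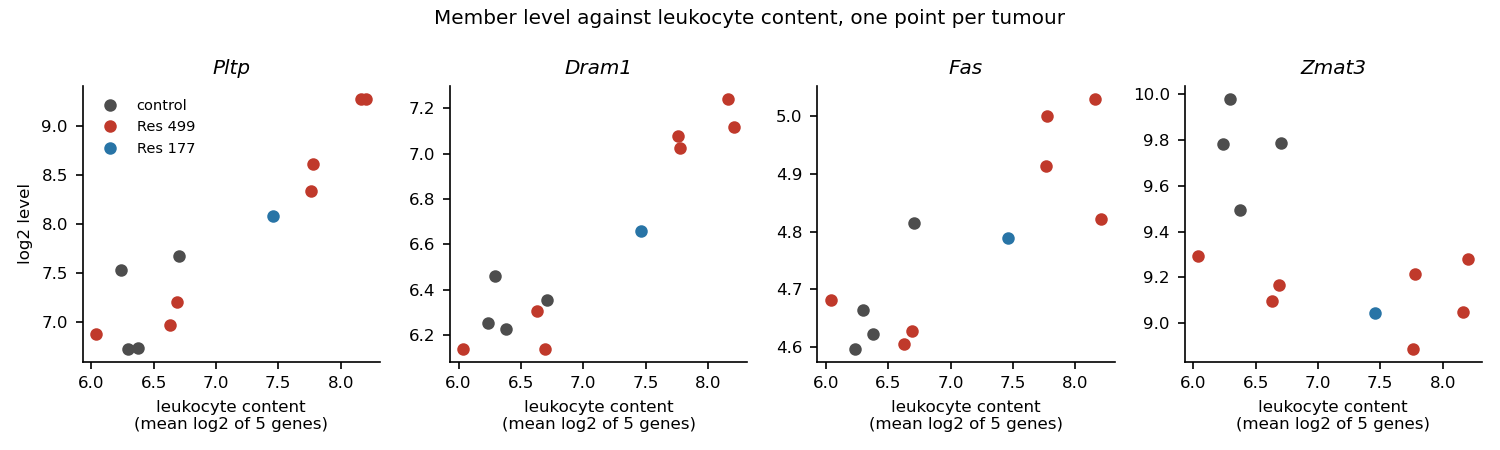
Log2 level of Pltp, Dram1, Fas and Zmat3 (vertical axes) against leukocyte content (horizontal axes, mean log2 level of 5 leukocyte genes), with a point per tumour of the first design coloured by group. Pltp and Dram1 are highest in the tumours with content of 7.76 or more, while Zmat3 lies between 8.89 and 9.30 in Res 499 tumours at both ends of the axis.

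Control replicate 5 stood nearer to the resistant tumours than the other controls did. It was the lowest control in 21 of 29 members, against 29.6% of all genes, and in 9 of the 11 members lower at unadjusted p. Without it, 4 members passed the adjusted threshold in Res 499 against control, namely Zmat3, Cdkn1a, Ercc5 and Trp53inp1 (-1.11, adjusted p = 0.0252), against 0.337% of all genes called lower. In that setting 10 members had every Res 499 tumour below every remaining control, against 3.3% of all genes. This control was examined because of its values, and its removal is a check and not the comparison reported.

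When the 8 resistant tumours of the first design, 7 of them Res 499, were set against the 4 sensitive ones, 3 members fell (0.325% of all genes were called lower) and 0 rose (0.289%). Zmat3 fell by 0.63 on the log2 scale (SE 0.10, adjusted p = 0.0135 by limma), Cdkn1a by 0.74 (SE 0.14, adjusted p = 0.0379) and Ercc5 by 0.55 (SE 0.11, adjusted p = 0.0455). At unadjusted p 11 members were lower (6.26% of all genes) and 0 higher (7.11%), 22 of 29 were negative (47.6% of all genes), and the median was -0.18. Leaving out 1 tumour at a time, Zmat3 passed in 10 of 12 fits and missed without control replicate 2 (0.0553) or 4 (0.0822). Cdkn1a passed in 4 of 12, with adjusted p from 0.0173 to 0.174, and missed without Res 177, control replicates 2, 3 or 4, or Res 499 replicates 3, 4, 6 or 7. Ercc5 passed in 2 of 12, those without Res 499 replicate 2 or control replicate 5, with adjusted p from 0.0240 to 0.186. In the fit that also held leukocyte content, the adjusted p was 0.0647 for Zmat3, 0.115 for Cdkn1a and 0.102 for Ercc5. With no filter on dim genes Ercc5 had an adjusted p of 0.0524.

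Res 177 on the first design was a single tumour, to which the fit lends the spread of the other groups, and it shares its 4 controls with Res 499. Most of the p53 genes had lower levels in it than in the controls. Of 29 members 23 were negative (46.7% of all genes), with a median of -0.22 against 0.01, and 16 lay below every control (17.5% of all genes) while 3, Pmaip1, Dram1 and Pltp, lay above every control (22.5%). By limma 0 members were called lower (0% of all genes) and 0 higher (0.21%). At unadjusted p 5 were lower (1.52% of all genes): Cdkn1a (-0.99, SE 0.25, adjusted p = 0.377), Zmat3 (-0.72, SE 0.18, adjusted p = 0.367), Tnfrsf10b (-0.62), Gtse1 (-0.57) and Ercc5 (-0.55). Pmaip1 (0.29) was the 1 member higher at unadjusted p (2.56% of all genes). The direct test of Res 499 against Res 177 called 0 members lower (0.234% of all genes) and 0 higher (0%), and at unadjusted p it had 0 in either direction (1.94% and 0.998% of all genes). The median difference was 0.02, the smallest p belonged to Pmaip1 (-0.26, unadjusted p = 0.0566), and with 1 Res 177 tumour this does not show that the sublines are alike.

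The second design gave the same contrast in tumours that the first did not hold, 1 Res 177 and 1 control, with no test possible. Of 31 members 22 were lower in the Res 177 tumour (37.1% of all genes), and the median difference was -0.20 against 0.03 over all genes. In 5 members the log2 difference was -0.5 or lower (1.88% of all genes), and in 1 it was 0.5 or higher (3.88%). Zmat3 was at 9.32 in Res 177 and 10.48 in the control, a difference of -1.17. Trp53inp1 was at 10.67 and 11.66, a difference of -0.98. Both are also among the members with the largest negative changes on the first design. The other 3 were Ak1 (-0.68), Phlda3 (-0.65) and Ddit4l (-0.53), none of which had an unadjusted p under 0.05 in Res 499. Just short of that bound, and not counted, were Ccng1 (-0.50), Ercc5 (-0.49), Btg2 (-0.48), Gtse1 (-0.47) and Sesn2 (-0.45). Tnfrsf10b (-0.41), Aen (-0.35), Tgfa (-0.33), Polk (-0.23) and Apaf1 (-0.18) were lower by less. Mdm2 (-0.01), Mdm4 (0.00) and Plk2 (0.01) were level, Fas was at 5.34 in both tumours, and Ddb2, the lesion-recognition protein measured here only on this design, was 0.46 higher. Pltp was 0.54 higher, in a tumour whose 16 measured leukocyte markers were all higher than the control's, with a median difference of 0.63. The part of leukocytes in the Pltp difference was not tested on this design. Centring each array on its median brought 10 members to -0.5 or lower and 0 to 0.5 or higher, against 2.87% and 2.77% of all genes. It also moved the median over all genes from 0.03 to -0.06.

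Both Res 177 tumours, on separate designs with separate controls, had values below their control for 20 of the 28 members tested on both (71.4%), against 3509 of 15034 genes (23.3%). The members lower in Res 499 at unadjusted p can be followed in the second design too, because these comparisons share no tumour. Of 10 such members 9 were below 0 there, against 75.2% of all genes chosen the same way, and 2 were at -0.5 or lower, against 15.9%. Those shares are near the ones of all genes lower in Res 499.

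**Figure D5:**
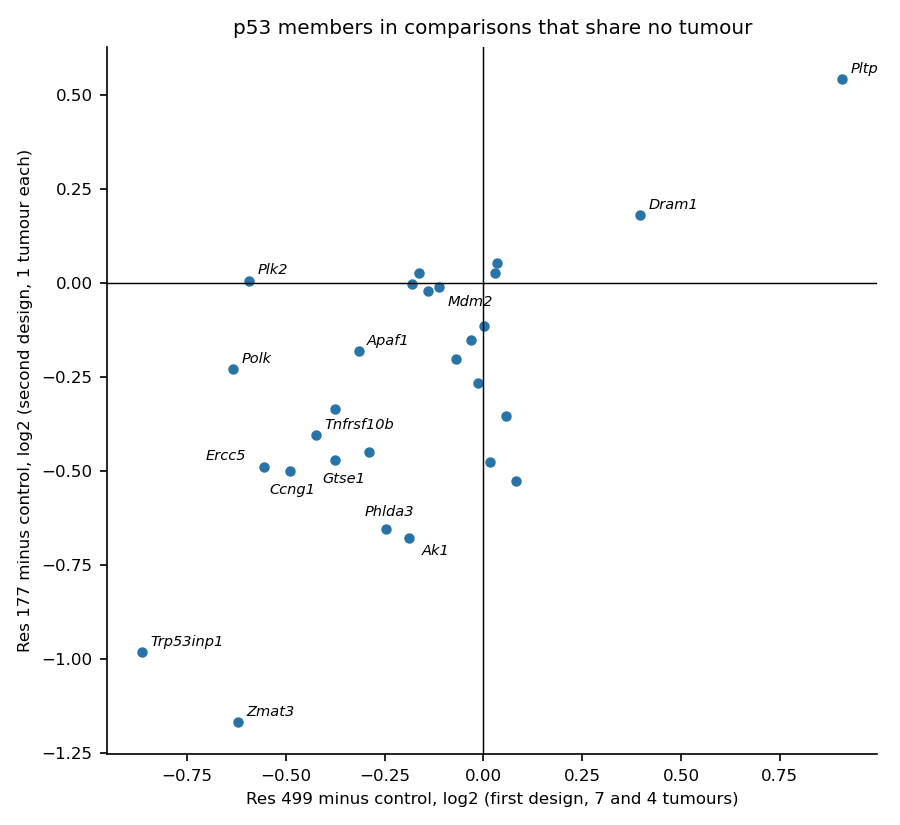
Log2 difference of Res 177 minus control on the second design (vertical axis, 1 tumour each) against the change of Res 499 on the first design (horizontal axis, 7 and 4 tumours), with a point per member. Zmat3 (-0.62 and -1.17) and Trp53inp1 (-0.86 and -0.98) lie furthest to the lower left, and Pltp (0.91 and 0.54) to the upper right.

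Upstream of these targets, the genes that set p53's activity differed between Res 499 tumours, and none passed the test. Of 26 p53 regulators 21 had a negative change (80.8%), against 72.4% of the tested members and 48.3% of all genes. Their median was -0.19, against -0.18 over the members and 0.01 over all genes. Negative changes in Res 499 were thus not particular to the members. By limma 0 of the 26 regulators passed the adjusted threshold while 5 were lower at unadjusted p (6.29% of all genes). Relative to the control mean, the median over the list was -0.48 in Res 499 replicate 5 and -0.20 to 0.02 in the other 6, with replicates 1 and 2 at 0.02 and 0.00. Among them were the damage kinases Atr (-0.38, SE 0.14, adjusted p = 0.269) and Prkdc (-0.38, SE 0.15, adjusted p = 0.292) and the deacetylase Sirt1 (-0.24, SE 0.09, adjusted p = 0.252). Ppm1d, the phosphatase Wip1 that p53 induces and that shuts the response down, had -0.17 (SE 0.08, adjusted p = 0.371). Its groups did not overlap (1.15% of all genes) but all but touched, with the highest Res 499 level and the lowest control level both at 10.09. Cdkn2a, whose product Arf holds Mdm2 in check, was at 6.62 to 6.79 in the controls and 6.66 to 6.86 in Res 499, with a change of 0.02 (SE 0.06, adjusted p = 0.937). On the second design 13 of the 26 regulators were negative (37.1% of all genes), with a median of 0.00.

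Other p53 targets outside the 35 had values on both sides of 0. Of 24 such genes 21 were tested, 13 had a negative change in Res 499 (48.3% of all genes) and the median was -0.07. By limma 0 passed the adjusted threshold while 4 were lower at unadjusted p (6.29% of all genes). Slc19a2, a thiamine transporter, had -0.37 (SE 0.09, adjusted p = 0.0843), Dcxr, a carbonyl reductase, -0.31 (adjusted p = 0.166), and Tob1, an antiproliferative protein related to Btg2, -0.41 (adjusted p = 0.177). Perp, a desmosomal membrane protein induced by p53 and p63, was high where Res 177 was measured. Its level was 5.17 to 5.66 in the controls, 5.39 to 5.81 in Res 499 and 8.45 in the Res 177 tumour. The fit, which takes its spread from the other groups, put it 3.01 higher in that tumour than in the controls (SE 0.18, adjusted p = 1.92e-06 by limma). In Res 499 its change was 0.13 (adjusted p = 0.639), and its value for Res 499 against Res 177 was -2.87; with 1 Res 177 tumour on this design a difference between the sublines cannot be told apart from one of that tumour. On the second design Perp was at 7.72 in the Res 177 tumour and 5.89 in the control, a difference of 1.83. In the Res 177 tumour of the first design the epidermal genes Krt17 (3.59), Dsp (2.91) and Krt14 (2.39) were higher as well, as they were on the second (2.08, 1.20 and 1.08), and their part in the Perp value was not tested.

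Downstream of Cdkn1a, loss of p21 can free cell cycle genes from repression by the DREAM complex, and in Res 499 these genes were split evenly. Of 18 tested 9 were negative and 9 positive in Res 499, with a median of 0.01 (48.3% of all genes negative). By limma 0 passed the adjusted threshold while 1 was higher at unadjusted p (6.68% of all genes). That gene was Mcm5, a subunit of the replicative helicase (0.26, SE 0.12, adjusted p = 0.369), and the next by p were E2f1 (0.23) and the spindle checkpoint kinase Bub1b (0.17). In the Res 177 tumour of the first design 7 of these 18 genes were negative (46.7% of all genes), with a median of 0.04 against 0.01 over all genes. On the second design 1 of these 18 genes was lower in the Res 177 tumour (37.1% of all genes), and the median difference was 0.21 against 0.03 over all genes. Stress can also reach Sesn2 and Tnfrsf10b through the factors ATF4 and CHOP. Of 12 genes of that response 3 were negative in Res 499 (48.3% of all genes) and 9 positive. Their median was 0.12 against 0.01 over all genes, and 0 passed limma's adjusted threshold. At unadjusted p 3 were higher (6.68% of all genes), namely Ddit3 (0.53), Atf3 (0.34) and Vldlr (0.59). By tumour, the median over the list relative to the control mean was -0.12 and -0.07 in Res 499 replicates 1 and 2 and 0.10 to 0.35 in the other 5, while the controls ran from -0.17 to 0.23, with replicate 5 highest. On the second design 6 of those 12 were lower in Res 177 (37.1% of all genes), with a median of -0.01 against 0.03 over all genes.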

How the data were processed

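Total RNA of 14 tumours was measured on 2 array designs. Per the submitters' processing notes, the authors used oligo and its RMA method, which yielded the deposited log2 level of each probe set; their versions are not given in the sources used, and the scale was read from the values. RMA normalizes within a design, so no level was compared between designs. There is no read depth, so precision depends on how many tumours were measured. Symbols came from GEO's annotation of the arrays. The tests used limma 3.58.1 (lmFit, eBayes) under R 4.3.3, in a fit of 3 groups or of 2 response levels, with Benjamini-Hochberg adjustment over 16635 genes and a threshold of 0.05. The code was tested on simulated data. Differences on the second design were described at an absolute size of 0.5. The members, gene lists and tests were chosen with earlier results of these data known, and no list was tested as a set. Tumour values are given for Cdkn1a, Mdm2, Zmat3, Fas and Bbc3, for every member past the threshold, and for the 8 others with the largest absolute t; Pltp and Dram1 were added for their positive changes. List genes are named where they passed, and otherwise up to 3 per list by t in Res 499, besides Ptprc, Adgre1, Cdkn2a, Ppm1d and Perp. Alternatives altered the filter, the choice of probe set, normalization, prior or array weights, fitted only the compared groups, added a leukocyte covariate, or left out each tumour. Promoter windows came from RefSeq.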

Additional observations from a re-analysis of the deposited data

Results flagged for a closer look

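In each group of 4 controls or 7 Res 499 tumours, the highest and lowest levels of the 29 tested members were compared with the rest of their group, which made 58 checks, and chance alone singles out about 1 in 20 groups. These values, 6 in all, stood far from the others of their group. Control replicate 3 had a Plk3 level of 8.04, with the nearest control at 7.58. Control replicate 5 was low for Phlda3 (9.95, nearest 10.54) and for Ak1 (6.95, nearest 7.23). Res 499 replicate 2 was low for Bbc3 (5.76, nearest 6.29) and for Tgfa (5.40, nearest 5.57). Res 499 replicate 5 was low for Polk (7.90, nearest 8.40).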

How the results depend on the processing

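The median change of the members kept its negative sign in every alternative for Res 499, Res 177 and all resistant tumours against control, and the count of members called depended on the setting. The percentage in brackets is that of all genes called lower in the same setting. In Res 499 against control the count was 1 as reported (0.21%), 2 with the lowest 50% of genes left out (0.415%), 3 with each array centred (0.265%) and 3 with quantile normalization (0.283%), 2 with a trended robust prior (0.246%), 8 with array weights (1.08%), 0 with leukocyte content as a covariate (0.0541%), and 0 to 4 with 1 tumour left out (0.018% to 0.499%). For resistant against sensitive it was 3 as reported (0.325%), 8 with array weights (1.09%), 0 with the leukocyte covariate (0.0781%), and 0 to 4 with 1 tumour left out (0.018% to 0.475%). The count of members that did not overlap was 6 (1.15% of all genes), and 6 to 10 with 1 tumour left out (1.16% to 3.3%). The median of Res 499 against Res 177, 0.02, lay between -0.0216 and 0.0499 with 1 tumour left out, and was -0.0216 without Res 499 replicate 2 and -0.00372 without replicate 3. On the second design, centred arrays gave 10 members at -0.5 or lower (2.87% of all genes) and 0 at 0.5 or higher (2.77%). The median of the members was then -0.29, against -0.06 over all genes. Fits without Res 177 or with only the compared groups hardly alter Res 499 against control, and they count among its 22 alternatives. Over these 22, Zmat3 was called in 14, Cdkn1a in 8 and Ercc5 in 4. The causes of these differences were not tested. Perp in Res 177 passed in every alternative that kept it; leaving out the lowest 50% of genes removed it. The tests without the Res 177 tumour cannot be made for its own comparisons. Replicate numbers only name tumours, and no paired analysis was possible because the labels give none.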
